A study of Caenorhabditis elegans with 2 samples.

Results

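The regions described here lay at genes annotated as non-coding RNA (ncRNA) and away from the promoters of protein-coding genes, in a map of where the protein C08G9.2 was recovered on the Caenorhabditis elegans genome. Chromatin was immunoprecipitated with an antibody against GFP and sequenced (ChIP-seq), from whole hermaphrodites of strain OP513 at the late embryonic stage, 5 hours after synchronization by egg bleaching. Every worm carried the genotype unc-119(tm4063) III; wgIs513, in which the wgIs513 transgene supplies C08G9.2 with a C-terminal GFP-FLAG tag. There was 1 group with 2 biological replicates, so no condition was compared and no p-value is given. The labels do not say whether the tagged protein replaced the native one, nor which promoter drives it, and the signal comes from all cell types of the embryo together.

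The pooled list held 30000 regions, weak ones included. A thresholded list held 1416 peaks, cut by irreproducible discovery rate, which compares how replicates rank regions. The lowest signal in that list was 96.98, and the highest among the ncRNA regions outside it was 96.75. A listed peak could still rank low in a replicate. A region was taken when its summit, the position of highest signal, lay within 500 bp of the start of an Ensembl gene of biotype ncRNA. It also had to lie over 500 bp from every protein-coding gene start and from every tRNA, snoRNA, snRNA and miRNA start. Of 3168 pooled regions with an ncRNA start in the window, 666 were near a coding start, and 417 near a small RNA start, 84 of them near both, which left 2169 regions. Of the 2169, 185 overlapped a thresholded peak by at least 1 bp and are called peak regions, and 1984 overlapped none and are called other regions. The peak regions were 8.53% of the 2169 (95% exact interval 7.39 to 9.78). Of all pooled regions, 5.98% overlapped a peak. A comparison set held the 20347 pooled regions also over 500 bp from coding and small RNA starts, with no ncRNA start within 500 bp. Of these, 2.77% overlapped a peak. They were not matched to the ncRNA regions by distance to coding starts or by place. The peak regions held 129 that were themselves thresholded peaks (5.95%, 4.99 to 7.03) and 56 that lay beside a peak. The share that were themselves peaks was 2.06% of the regions with no ncRNA start and 4.72% of all pooled regions. A region is named by the ncRNA gene with the nearest start, and the 185 peak regions had 141 distinct nearest genes.

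Non-coding RNAs act without being translated. A few families have well-known work: the RNA of RNase P is the catalytic part of the enzyme that trims the leading end of transfer RNA precursors, and the RNA of the signal recognition particle (SRP) helps bring ribosomes that make secreted proteins to the endoplasmic reticulum. Most genes of this biotype in the worm are short transcripts known only by a sequence name such as C13G3.8, mostly with no described function.

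The windows with the highest signal are shown first, because their letters differed from those of most other peak regions. Each sequence is 300 bases centred on a summit, read 5′ to 3′ on the strand of the ncRNA gene from the RefSeq WBcel235 genome, which is the ce11 assembly. The window of C13G3.8 covers chrV:11029351-11029650 on the plus strand, with the gene start at base 294. The window of ZK757.7 covers chrIII:9868174-9868473 on the plus strand and lies past the end of that gene. Capitals mark the letters CGAGAGGA, which were chosen by reading these windows after their values and several related strings had been seen. Short runs of letters in the strongest windows of the pooled list had been looked at before as well.
C13G3.8: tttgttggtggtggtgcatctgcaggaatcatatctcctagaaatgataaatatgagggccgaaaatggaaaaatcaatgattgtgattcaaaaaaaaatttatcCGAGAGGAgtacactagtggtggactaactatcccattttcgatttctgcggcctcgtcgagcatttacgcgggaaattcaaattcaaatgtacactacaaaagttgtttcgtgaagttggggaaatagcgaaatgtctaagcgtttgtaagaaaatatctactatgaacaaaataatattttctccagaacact
ZK757.7: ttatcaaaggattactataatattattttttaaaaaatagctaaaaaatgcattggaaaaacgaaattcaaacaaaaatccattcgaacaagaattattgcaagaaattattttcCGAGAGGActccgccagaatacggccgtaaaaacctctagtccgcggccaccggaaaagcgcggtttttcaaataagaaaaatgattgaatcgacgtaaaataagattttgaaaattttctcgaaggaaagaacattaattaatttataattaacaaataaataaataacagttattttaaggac

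Of the 129 thresholded peaks, 2 held CGAGAGGA on either strand, and these were the 2 above. The only other peak region with it was at T27F2.5, which lay beside a peak and had a pooled signal of 51.4 (rank 7475 of the pooled list). The letters were in 3 of 185 peak regions (1.62%) and in 32 of 1984 other regions (1.61%). In the whole pooled list they were in 42 of the 300 regions of highest signal (14.0%), in 35 of the 1116 regions ranked 301 to 1416 (3.14%) and in 337 of the 28584 regions below (1.18%). The bound at rank 300 was chosen after the data were seen. The letters were chosen after a look at the strongest pooled windows, so a higher share there is no independent result. A match is a description of the letters and not a binding site.

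The next windows show the letters GAGAGAG, which were in a larger share of peak regions than of other regions. They are the 3 peak regions of highest signal with GAGAGAG, at srpr-2.2, an SRP RNA gene (chrIII:5031555-5031854), at F13D11.9 (chrX:5812061-5812360) and at F47F6.15 (chrII:1246985-1247284), then the other region of highest signal with it, at F25D1.11 (chrV:10536805-10537104), whose signal was 95.5 (rank 1479). All 4 genes lie on the minus strand, and the windows are printed on that strand, 5′ to 3′, from the same genome. Capitals mark GAGAGAG, which appears as CTCTCTC where it lies on the opposite strand. The gene start is base 147 at srpr-2.2, base 210 at F13D11.9, base 132 at F47F6.15 and base 206 at F25D1.11. Part of these letters also lies in the run marked above, but neither holds the other whole.
srpr-2.2: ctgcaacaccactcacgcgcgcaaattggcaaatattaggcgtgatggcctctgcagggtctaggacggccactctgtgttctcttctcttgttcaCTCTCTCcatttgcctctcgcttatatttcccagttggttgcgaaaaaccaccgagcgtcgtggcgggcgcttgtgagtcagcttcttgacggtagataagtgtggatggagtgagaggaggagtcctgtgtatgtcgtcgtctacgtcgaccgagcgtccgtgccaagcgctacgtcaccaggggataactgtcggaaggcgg
F13D11.9: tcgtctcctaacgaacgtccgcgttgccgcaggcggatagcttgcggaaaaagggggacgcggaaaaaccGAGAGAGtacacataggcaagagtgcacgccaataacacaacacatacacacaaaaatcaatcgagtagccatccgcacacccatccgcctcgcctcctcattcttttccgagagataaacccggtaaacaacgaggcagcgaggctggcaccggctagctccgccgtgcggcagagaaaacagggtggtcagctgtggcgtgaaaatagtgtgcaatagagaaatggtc
F47F6.15: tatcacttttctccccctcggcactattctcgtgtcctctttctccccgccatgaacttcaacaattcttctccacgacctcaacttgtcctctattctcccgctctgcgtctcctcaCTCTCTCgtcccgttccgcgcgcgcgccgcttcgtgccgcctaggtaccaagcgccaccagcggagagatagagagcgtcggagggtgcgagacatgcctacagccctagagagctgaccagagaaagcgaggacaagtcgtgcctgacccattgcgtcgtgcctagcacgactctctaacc
F25D1.11: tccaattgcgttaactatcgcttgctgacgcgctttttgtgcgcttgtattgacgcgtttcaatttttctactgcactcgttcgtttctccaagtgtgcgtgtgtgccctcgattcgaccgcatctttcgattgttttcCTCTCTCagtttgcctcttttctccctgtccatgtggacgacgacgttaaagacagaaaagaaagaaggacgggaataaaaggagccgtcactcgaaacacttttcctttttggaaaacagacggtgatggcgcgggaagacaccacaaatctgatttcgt

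GAGAGAG, searched on both strands of each 300 bp window, was in 64 of 185 peak regions (34.6%, 95% exact interval 27.8 to 41.9) and in 321 of 1984 other regions (16.2%, 14.6 to 17.9). Among the pooled regions with no ncRNA start, it was in 162 of the 563 that overlapped a peak (28.8%, 25.1 to 32.7) and in 8.49% of those that did not. The intervals of the peak regions with and without an ncRNA start overlap. The share in all pooled regions was 10.1%. The GC content of the windows moved with it: the median was 50% in peak regions and 43.7% in other regions, against 42.3% in the pooled list. Among ncRNA windows with a GC content of 50% or more, 36 of 82 with GAGAGAG overlapped a peak (43.9%) and 58 of 257 without it did (22.6%). Among ncRNA windows with a GC content of 40 to under 50%, 27 of 247 with GAGAGAG overlapped a peak (10.9%, 7.3 to 15.5). Of those without it, 54 of 1060 did (5.09%, 3.8 to 6.6). Among ncRNA windows with a GC content under 40%, the counts were 1 of 56 with GAGAGAG (1.79%, 0.0452 to 9.55) and 9 of 467 without it (1.93%, 0.885 to 3.63). The parts of base composition and of these letters in the signal were not tested. Both windows of highest signal lay well below the median of peak regions, C13G3.8 with a GC content of 36.7% and ZK757.7 of 29.0%, and neither held GAGAGAG. Among the other strong peaks, Y38H8A.10 was low as well, at 31.0%.

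**Figure D1:**
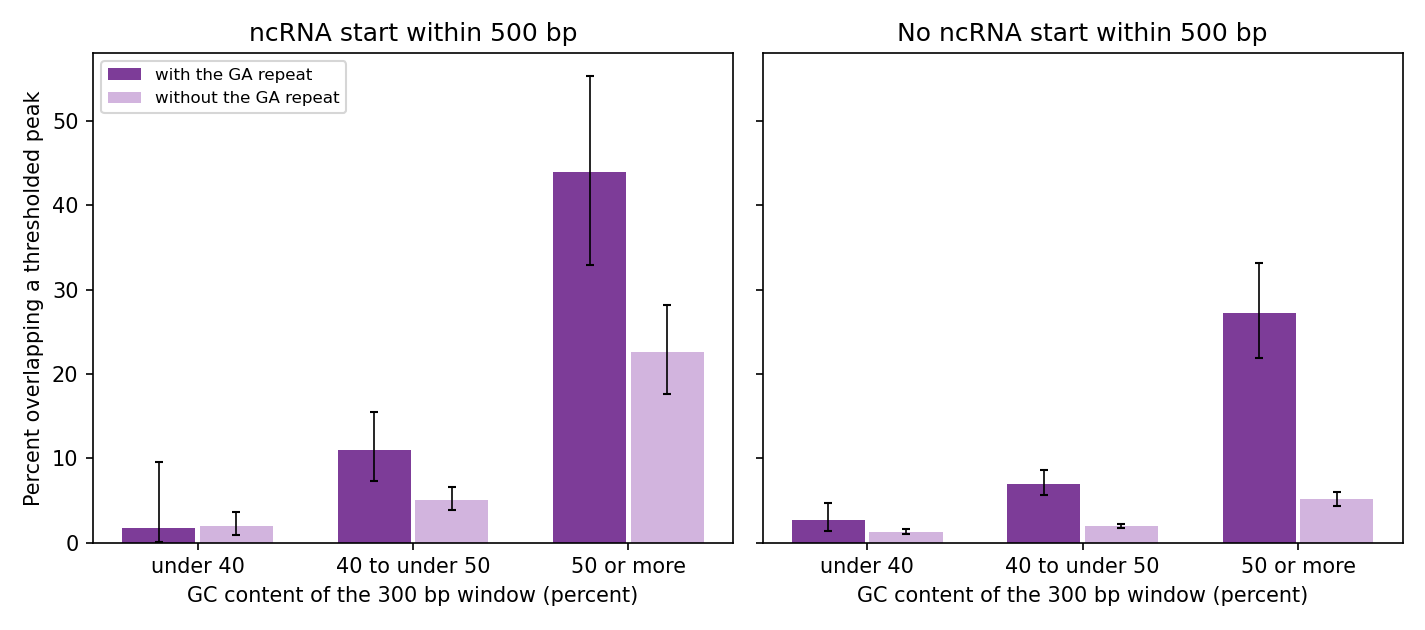
Percent of regions that overlapped a thresholded peak (vertical axis), by GC content of the 300 bp window (horizontal axis), with and without GAGAGAG, the GA repeat, for ncRNA regions (left panel) and for regions with no ncRNA start within 500 bp (right panel). Bars are shares with 95% exact binomial intervals; the tallest bar, 43.9%, is for ncRNA windows with GAGAGAG and a GC content of 50% or more, and the matching bar without an ncRNA start is at 27.3%.

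The other motifs searched were each in at most 10.3% of peak regions. TATAAA, the letters of the TATA box, was in 19 peak regions (10.3%, 6.30 to 15.6), in 17.3% of other regions and in 19.3% of all pooled regions. CACGTG, an E box, was in 4.86% of peak regions, 4.44% of other regions and 7.05% of the pooled list. CGCGAAA, part of the site of E2F proteins, was in 4.86% of peak regions, 4.64% of other regions and 5.12% of the pooled list. GTTCGANNC, the core of the B box inside genes read by RNA polymerase III, was in 2 peak regions (1.08%), in 2.32% of other regions and in 3.51% of the pooled list. CTGTTTCA, the letters upstream of many worm piRNA genes, was in 2 peak regions (1.08%), in 1.76% of other regions and in 1.55% of the pooled list. Within the ncRNA genes themselves, GTTCGANNC was found at 0 of 185 peak regions, which allows up to 1.97%, and at 15 of 1984 other regions (0.756%). A run of 4 T, where RNA polymerase III stops, lay within 20 bases after the gene at 29 peak regions (15.7%, 10.8 to 21.7) and 391 other regions (19.7%, 18.0 to 21.5). The ncRNA gene had another exact copy in the genome at 0 of 185 peak regions, which allows up to 1.97%, and at 11 other regions (0.554%).

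The signal, in the unit the authors deposited, has no stated scale and chose the peaks, so it is given as a description. The regions that were themselves peaks ran between 97.2 and 496.6, with a median of 118.3. The 56 regions beside a peak ran between 25.7 and 96.6 with a median of 46.8, and the 1984 other regions between 25.6 and 96.7 with a median of 39.6. Of the 56, 5 lay beside a peak that was near a coding start and so not in the set, and the rest beside a peak that was itself an ncRNA region. Around the threshold, the lowest ncRNA peaks were K07A3.5 at 97.9, C54G4.12 at 97.8, WBGene00195021 at 97.6, and T28B11.22 and W09D12.5 at 97.2 each. The highest regions that overlapped no peak were F11A6.11 and C25F6.26 at 96.7 each, H30A04.4 at 96.6, T23F11.10 at 96.2 and F31E8.10 at 96.1.

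Both replicate lists, of 27783 and 29382 regions, held a region at each of the 129 peaks. The median rank by signal was 1040 in replicate 1 and 869 in replicate 2. Of the 129, 69 were among the 1416 highest regions of both lists, 16 of replicate 1 alone, 35 of replicate 2 alone and 9 of neither. The other regions matched at 1504 in replicate 1 and 1638 in replicate 2, with median ranks of 10348 and 10512, and 59 were in neither list. Only 1 other region was among the 1416 highest of both lists. Some peak regions ranked far apart in the replicates. Y39A1A.28, a peak with a pooled signal of 101.2, ranked 450 in replicate 1 and 12181 in replicate 2. Among regions beside a peak, Y46E12BL.9 ranked 27040 in replicate 1 and 754 in replicate 2, and F38H4.15 ranked 737 in replicate 1 and 23664 in replicate 2. The region beside the C14F5.10 peak ranked 23271 in replicate 1 and 790 in replicate 2, and F52H2.13 ranked 13686 in replicate 1 and 502 in replicate 2. For each of these regions beside a peak, the better rank was also that of the adjacent peak in the same replicate. Their gaps therefore compare different regions and do not measure how far the replicates differ.

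**Figure D2:**
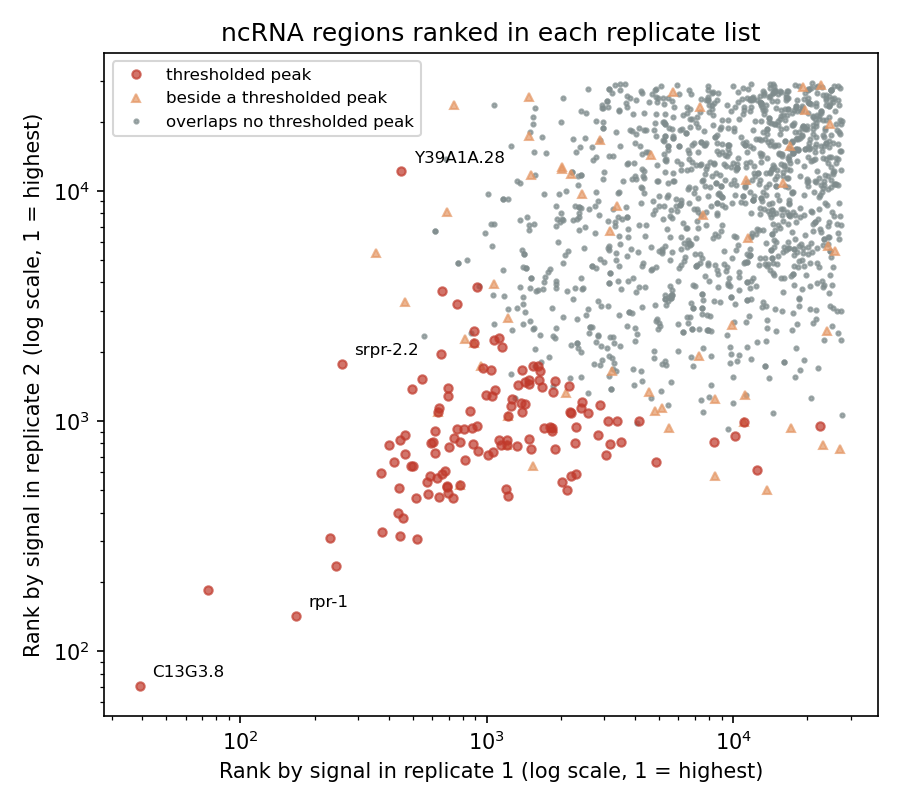
Rank by signal in replicate 1 (horizontal axis) and in replicate 2 (vertical axis), both on log scales with 1 the highest, for ncRNA regions found in both lists: red circles are thresholded peaks, orange triangles regions beside one, and grey points regions that overlap none. The red circles gather at low ranks in both lists, with C13G3.8 at ranks 39 and 71, while Y39A1A.28 lies far off the diagonal at ranks 450 and 12181.

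The region of highest signal was at C13G3.8, a gene of 141 nt. Its summit lay 143 bp upstream of the ncRNA start, in an intron of pptr-2, which is on the opposite strand. The gene pptr-2 encodes a regulatory subunit of protein phosphatase 2A. The pooled signal at C13G3.8 was 496.6 (rank 56), with 261.3 in replicate 1 and 236.9 in replicate 2. The next region was at ZK757.7, a gene of 128 nt, with its summit outside coding genes. It had a pooled signal of 386.4, with 223.3 in replicate 1 and 160.2 in replicate 2. Its summit lay 439 bp past the start of the gene and 532 bp from the nearest coding start, so it stood close to both limits of the rule. Their ranks were 39 and 74 in replicate 1, and 71 and 184 in replicate 2.

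The RNase P RNA gene rpr-1 (chrI:13463955-13464207, plus strand, 253 nt) followed. It lies in an intron of ints-8, a gene for a subunit of the Integrator complex, on the opposite strand. Its first region had a pooled signal of 329.3 (rank 154), with 149.8 in replicate 1 and 178.8 in replicate 2, and a summit 12 bp past the gene start. A second region, 219 bp past the start and still inside the gene, was also a thresholded peak at 106.5, but ranked 8378 in replicate 1 and 810 in replicate 2. The RNA of RNase MRP, an enzyme related to RNase P, is encoded by mrpr-1. It had 2 regions that overlapped peaks, the higher at 220.3 with ranks of 333 and 352 in the replicates, but its start lies 316 bp from a coding start, and both regions were too close to a coding start to enter the set.

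Of 5 SRP RNA genes, 4 had peak regions. The highest was srpr-2.2 (299 nt, chrIII:5031410-5031708), with a pooled signal of 285.6. Its summit lay 3 bp inside the start, in an intron of klp-6, which is on the opposite strand. The overlapping replicate regions with the nearest summits had 120.2 (rank 258) in replicate 1 and 50.8 (rank 1774) in replicate 2. These may be different regions, which was not tested, so the gap may not measure how far the replicates differ. At srpr-1.1 the highest of 3 regions had a signal of 127.0, with 64.6 in replicate 1 and 73.9 in replicate 2, and its summit lay in a coding exon of pals-26, 438 bp past the start. At srpr-1.2, in an intron of ckb-2, a choline kinase gene, the peak was at 101.7 with its summit 40 bp inside the gene. At srpr-3, whose start coincides with that of another ncRNA gene, F44A2.13, the higher of 2 peak regions had a signal of 111.0, with ranks of 1708 and 929 in the replicates. No pooled region lay within 500 bp of the start of srpr-2.1. These genes are near copies: srpr-2.1 and srpr-2.2 were 99.0% identical over their length, srpr-1.1 and srpr-1.2 98.3%, and srpr-3 81.6 to 82.6% identical to the others. How the reads were assigned among them is not stated, so the split of signal between the copies is uncertain.

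Other ncRNA genes with a name of their own had no peak. At tts-2 the higher of 2 regions had a signal of 88.2 (rank 1788), with 39.7 in replicate 1 and 47.9 in replicate 2. At tts-1 the region had a signal of 49.1 (rank 8390), and at rncs-1, whose long hairpin RNA inhibits Dicer, 35.7 (rank 17050). No pooled region lay within 500 bp of the starts of yrn-1, lfor-1, lfor-2 or linc-171.

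The 25 peaks of highest signal all reached 157.6 or more. By the replicate region with the nearest summit, 24 of them were among the 1416 highest regions of both lists. The exception was srpr-2.2, whose replicate values may come from different regions. By place of the summit, 13 lay in introns and 12 outside coding genes. After srpr-2.2 came K10H10.11 (80 nt), with a pooled signal of 267.9, and 123.8 in replicate 1 and 144.1 in replicate 2. Y38H8A.10 (52 nt), in an intron of tbc-9, had 252.6, with 127.7 and 126.2 in the replicates. F58A3.6 (72 nt), in an intron of the LIM-domain binding protein gene ldb-1, had 217.8, with 95.5 in replicate 1 and 121.7 in replicate 2. C30E1.9, whose gene of 14770 nt was the longest at any peak region, had 210.0, with a summit 39 bp upstream of the start. F40F9.14, in an intron of drap-1 on the same strand, had 206.1 and a summit 1 bp from its start. These regions were high in both replicates, and their genes ran between 52 and 14770 nt.

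Below these, F13D11.9 (214 nt) had a signal of 196.0 and 4 ncRNA starts within 500 bp of its summit. F48C1.13 had 192.6, in an intron of let-526, a gene for a subunit of a SWI/SNF chromatin remodelling complex. F47F6.15 had 179.6, in an intron of lin-42, the worm relative of the period clock genes. F13D12.11 had 175.9, in an intron of gpb-1, which encodes a G protein beta subunit, and C41G11.15 had 161.2, in an intron of rgs-6. F23B12.10 at 182.0, Y57A10A.38 at 169.4 and T24B8.22 at 160.2 lay in introns too. The rest lay outside coding genes: C14F5.10 at 165.8, H34C03.18 at 165.3, C53C11.7 at 163.3, F08G2.13 at 162.9, C26E6.15 at 158.7, F52D10.9 at 158.2, Y40B1A.5 at 157.7 and C08B11.13 at 157.6. Of the 25, 11 had the summit within 100 bp of the ncRNA start and 8 had it inside the gene.

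**Figure D3:**
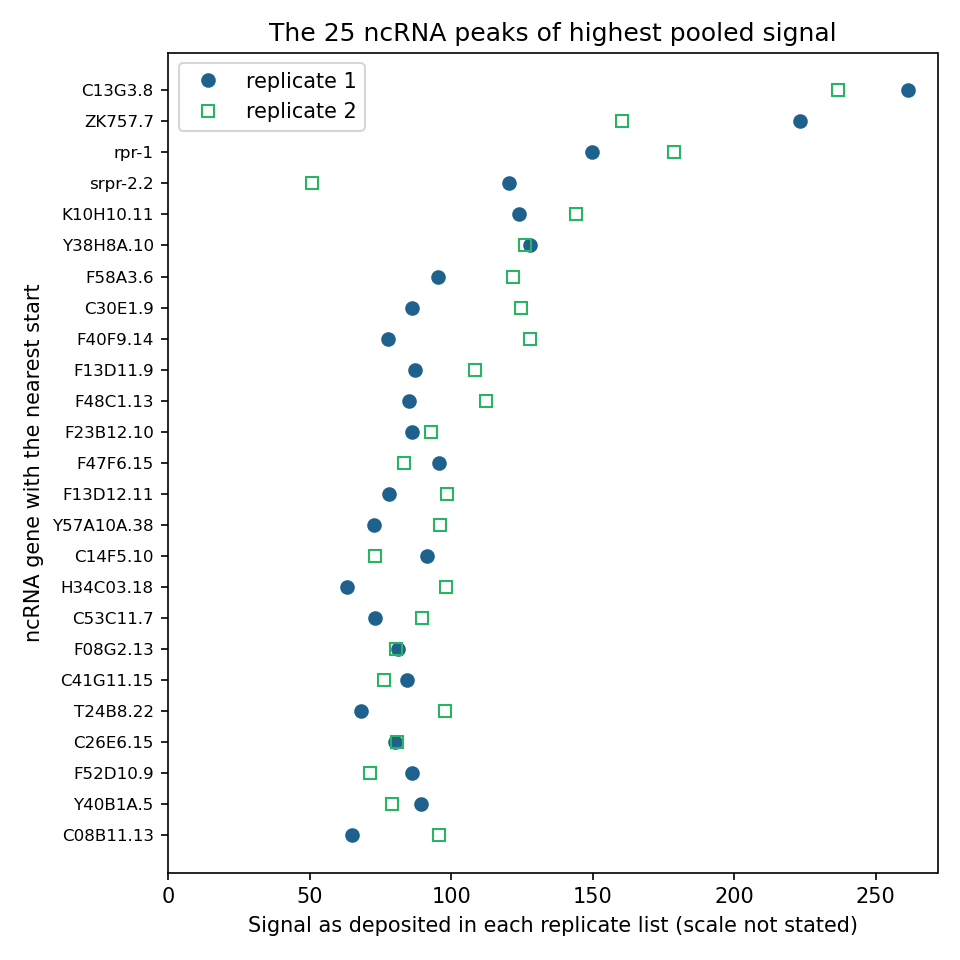
Signal as deposited in replicate 1 (filled circles) and replicate 2 (open squares), on the horizontal axis in the authors' unstated scale, at the 25 ncRNA peaks of highest pooled signal, named by the nearest ncRNA start and ordered from high to low down the page. C13G3.8 is highest in both replicates, at 261.3 and 236.9. The widest gap is at srpr-2.2, at 120.2 and 50.8, values that may come from different regions.

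The ncRNA genes at peak regions were longer than those at other regions at the median and at both quartiles. The median length was 150 nt at peak regions (quartiles 129 and 236) and 144 nt at other regions (114 and 193). Genes of 200 nt or more made up 71 of 185 peak regions (38.4%, 31.3 to 45.8) and 459 of 1984 other regions (23.1%, 21.3 to 25.1). They made up 19.4% of all 5837 ncRNA genes whose start lay over 500 bp from every coding and small RNA start. By length, 32 of 431 regions at genes under 100 nt overlapped a peak (7.42%), as did 82 of 1208 at 100 to 199 nt (6.79%), 66 of 486 at 200 to 499 nt (13.6%) and 5 of 44 at 500 nt or more (11.4%, 3.79 to 24.6). After C30E1.9, the longest genes at peak regions were W03D2.15 at 729 nt, F29F11.19 at 633 nt, F59B10.7 at 540 nt and F18A1.10 at 414 nt. The shortest were WBGene00195021 at 19 nt, C26E6.14 at 45 nt, Y71F9AL.21 at 51 nt, Y38H8A.10 at 52 nt and C26E6.15 at 53 nt.

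Counted by gene, 176 of the 5837 starts (3.02%) had a peak region within 500 bp, 2252 (38.6%) had other regions alone and 3409 (58.4%) had no pooled region. The median length was 149 nt for genes with a peak region, 143 nt for those with other regions alone and 138 nt for those with none.

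By place, 122 of 185 peak regions had the summit outside protein-coding genes (65.9%, 58.6 to 72.7), against 986 of 1984 other regions (49.7%, 47.5 to 51.9). Introns held 53 peak regions (28.6%, 22.3 to 35.7) and 726 other regions (36.6%, 34.5 to 38.8). Coding exons held 7 peak regions (3.78%) and 218 other regions (11.0%), and UTR exons 3 peak regions (1.62%) and 54 other regions (2.72%). The share that overlapped a peak was larger with an ncRNA start than without one outside coding genes, at 11.0% and 4.52%, and in introns, at 6.80% and 3.02%. In coding exons it was 3.11% (1.26 to 6.30) with an ncRNA start and 1.14% (0.903 to 1.41) without one, and in UTR exons 5.26% (1.10 to 14.6) with one and 2.63% (1.68 to 3.92) without. The intervals overlap in both kinds of exon and are apart in the other places. In introns, 12.3% of regions at genes of 200 nt or more overlapped a peak (7.87 to 18.0) and 5.17% at shorter genes (3.54 to 7.25). Outside coding genes it was 14.4% at genes of 200 nt or more (10.6 to 19.0) and 9.79% at shorter genes (7.84 to 12.0), and those intervals overlap.

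**Figure D4:**
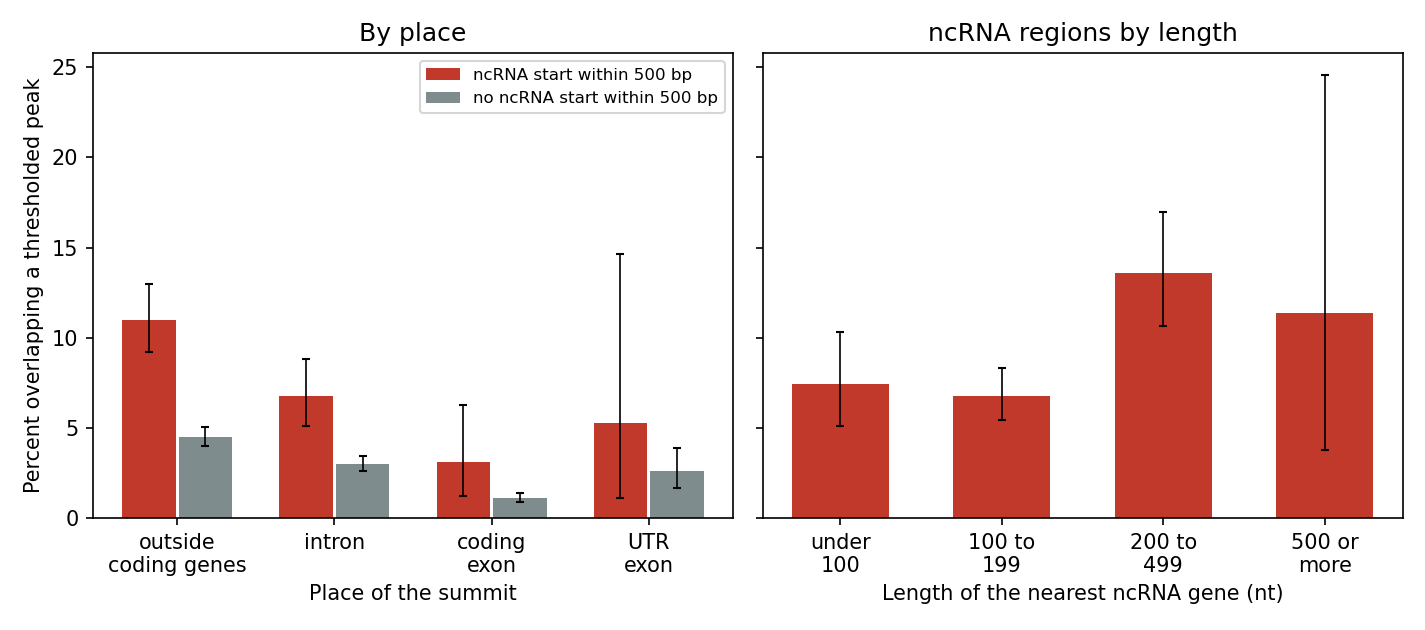
Percent of regions that overlapped a thresholded peak (vertical axis), by place of the summit for regions with and without an ncRNA start within 500 bp (left), and by length of the nearest ncRNA gene in nt for ncRNA regions (right), with 95% exact binomial intervals. Outside coding genes the bars stand at 11.0% and 4.52%, and the bar for genes of 200 to 499 nt stands at 13.6%.

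The intronic regions were mostly at ncRNA genes on the opposite strand to their host, the coding gene at the summit. This held for 44 of 53 intronic peak regions (83.0%, 70.2 to 91.9) and for 476 of 726 other intronic regions (65.6%, 62.0 to 69.0). Among all 2388 intronic ncRNA starts far from other starts it was 65.2%, counted over starts and not over summits. Of the 13 intronic regions among the strongest 25, those at F40F9.14 in drap-1 and F47F6.15 in lin-42 were on the strand of the host and the other 11 were antisense. The strand was taken from the ncRNA gene with the nearest start alone. At F40F9.14, another ncRNA gene on the opposite strand also covers the summit.

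Summits of peak regions lay closer to ncRNA starts than those of other regions. Within 200 bp of the start were 144 of 185 peak regions (77.8%, 71.2 to 83.6) and 1280 of 1984 other regions (64.5%, 62.4 to 66.6). Over 300 bp away were 18 peak regions (9.73%) and 436 other regions (22.0%). The side did not separate the sets, as 87 peak regions (47.0%, 39.7 to 54.5) and 993 other regions (50.1%, 47.8 to 52.3) lay upstream of the start. The summit lay inside the ncRNA gene in 71 peak regions (38.4%, 31.3 to 45.8) and 551 other regions (27.8%, 25.8 to 29.8). This share moved with gene length, at 47.4% for genes of 200 nt or more and 22.6% for shorter genes over both sets. Peak regions held more of the longer genes, and the part of length in the difference was not tested. The share that overlapped a peak was 11.2% at 0 to 50 bp, 8.81% at 51 to 100 bp, 10.2% at 101 to 200 bp, 7.90% at 201 to 300 bp, 5.08% at 301 to 400 bp and 2.75% at 401 to 500 bp. The median distance to the nearest coding start was 1958 bp for peak regions and 2690 bp for other regions, and 23.8% of peak regions and 14.8% of other regions had one within 1000 bp. With every annotated transcript start in place of gene starts, coding and ncRNA alike, 164 of 2008 regions overlapped a peak (8.17%).

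**Figure D5:**
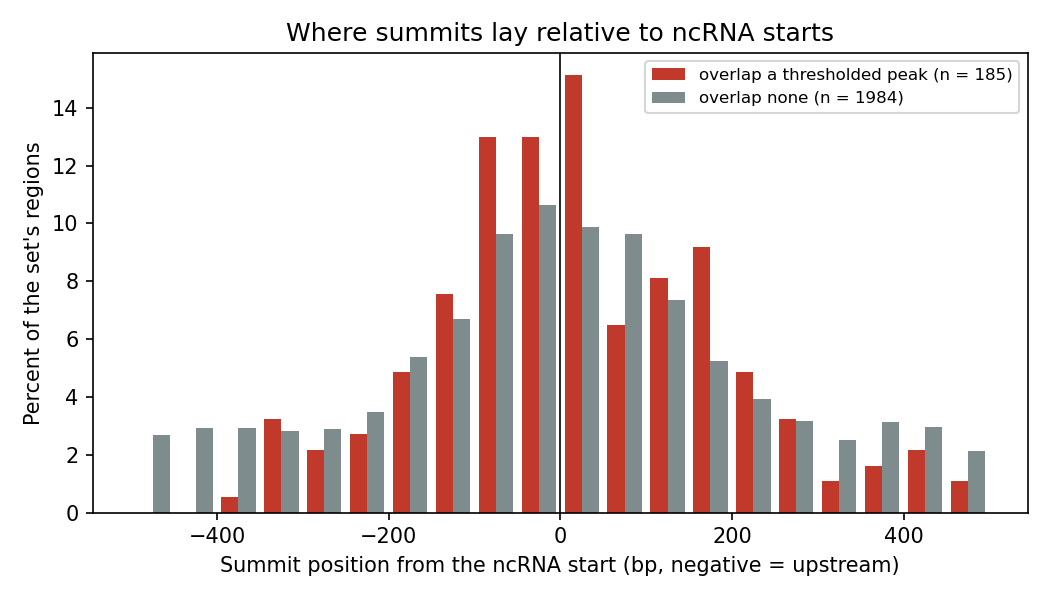
Position of the summit from the nearest ncRNA start in bp, negative upstream (horizontal axis, bins of 50 bp), as a percent of the 185 peak regions (red) and of the 1984 other regions (grey). The red bars are tallest close to the start, and only 18 peak regions lie over 300 bp away.

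Peak regions were found on all 6 nuclear chromosomes. Of the ncRNA regions of each chromosome, the share that overlapped a peak ran between 6.64% on X (46 of 693, 4.90 to 8.75) and 12.2% on IV (35 of 287, 8.64 to 16.6). Over all pooled regions the order differed, with 6.92% on X, the highest of the 6 chromosomes, and 6.11% on IV. Chromosome X held 24.9% of the peak regions and 32.0% of all 2169 ncRNA regions, and 33.0% of the ncRNA starts that lay far from coding and small RNA starts. More than 1 ncRNA start lay within 500 bp of the summit in 71 peak regions (38.4%) and 647 other regions (32.6%). A piRNA start lay within 500 bp of 3 peak regions (1.62%, 0.336 to 4.67) and of 48 other regions (2.42%, 1.79 to 3.20), a pseudogene start of 1 peak region (0.541%) and 7 other regions (0.353%), and an antisense RNA start of 1 region of each set.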

How the data were processed

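C08G9.2-eGFP ChIP-seq of late embryos was analysed from 2 biological replicates in 1 group, as the labels number them, with 0 columns of other samples. Per the deposited text records, regions were called against a control library, which was not analysed here, in each replicate and in both pooled, and thresholded by irreproducible discovery rate. How reads were aligned, and with which caller and cutoffs regions were called, is not given in the sources used here. The signal value of each region was used as the authors deposited it, and its scale is not stated. Sequencing depth is unknown, since no file holds read counts. The ce11 lists were joined to Ensembl release 115 genes and to the RefSeq WBcel235 genome, the same assembly; the ce10 lists were not used. Gene starts were the 5′ ends of the annotated genes.

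Each region took the nearest ncRNA start, and its rank in a replicate list came from the overlapping region with the nearest summit. Places and host genes of regions were taken at the summit, with places assigned in the order coding exon, UTR exon, intron and outside coding genes. Motifs were searched on both strands of 300 bp windows. Intervals are 95% exact Clopper-Pearson intervals over regions and cover counting error only, with neighbouring regions treated as independent. No test was run, because regions are not replicates and the signal chose the peaks. The join was tested on simulated regions. Members, motifs and rules were chosen with earlier results of these data known. The rule for named genes took those at the 25 ncRNA peaks of highest signal, 5 regions on each side of the threshold, the 5 with ranks furthest apart, the 5 longest and 5 shortest genes, and genes with a symbol. It also listed rpr-1, mrpr-1, yrn-1, rncs-1, tts-1, lep-5 and sls-1 by name, and no value is given here for lep-5 or sls-1. The genes srpr-2.1, lfor-1, lfor-2 and linc-171 have symbols but no region in the set, and were named beyond the rule. T27F2.5, F25D1.11 and F44A2.13 fall outside it and were chosen after their values were seen. Python 3.11.15, pandas 2.3.3, numpy 2.4.6, scipy 1.17.1 and edlib 1.3.9 (identity between genes) were used. Alternatives covered the window, the distance kept from coding starts, transcript starts, other non-coding classes, the overlap, the peak threshold, the longest gene in the window and leaving out each replicate.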

Additional observations from a re-analysis of the deposited data

How the results depend on the processing

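No paired analysis was possible because the 2 samples form 1 group. Median lengths were judged against the spread between the replicate lists and percents against their 95% intervals. The share of ncRNA regions that overlapped a thresholded peak was 9.92% with a window of 250 bp, 6.34% with 1000 bp, 5.95% for regions that were themselves the peak and 2.72% for peaks above the median peak signal; without each replicate it was 8.44 to 8.69%. The median length at peak regions was 149 nt with a 1000 bp window, 1000 bp from coding starts, for the peak itself, above the median peak signal and without each replicate, 149.5 nt away from all other non-coding classes or with at least 50% overlap, and 197 nt for the longest ncRNA in the window. At other regions it was 142 nt with a 1000 bp window, 147 nt for the longest ncRNA, and 143 to 144 nt without each replicate. Introns held 37.3% of regions overlapping a peak above the median peak signal, and 38.9% of other regions kept 1000 bp from coding starts. Outside coding genes lay 73.8% of peak regions and 53.5% of other regions by transcript starts, and 53.0% of other regions with a 250 bp and 44.8% with a 1000 bp window. Summits inside the ncRNA gene made up 37.4% of other regions with 250 bp and 18.0% with 1000 bp. Peak minus other differences kept their sign in 12 of 12 settings for length (5 to 50 nt) and for summits inside the gene (5.30 to 16.4 points), and in 11 of 11 for places outside coding genes (9.89 to 20.3 points). For introns they were negative in 10 of 11, between -12.1 and 1.41 points, the exception being peaks above the median peak signal. The causes were not tested. The unknown depth limits what a missing region can say.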
